A study of Homo sapiens with 10 samples.

Results

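The transcripts of 10 enzymes that write or erase methyl marks on DNA and histones were described in TPC-1 cells, a human papillary thyroid carcinoma line whose labels give a CCDC6-RET fusion. The genes were chosen by name, with earlier results of these data known, and no value entered the rule: DNMT1, DNMT3A, DNMT3B, TET1, TET2, TET3, EZH1, EZH2, KDM5A and KDM5B, which are 10 of the 58735 genes in the deposited table. All 10 passed a filter on low values (a level of at least 1 FPKM, fragments scaled to gene length and library size, in at least 2 libraries), as did 13927 genes in all. Parental TPC-1 cells had been treated with BLU667, also called pralsetinib, which inhibits the kinase RET, at 5 µM for 24 h. Adapted cells came from 3 colonies, BR8, BR10 and BR16, which had grown out under 5 µM BLU667. The sample labels put that culture at more than 50 days and the series design at more than 5 months. The solvent DMSO, given to parental cells for 24 h, was the control. Each of the 5 groups had 2 libraries, which the series design calls biological replicates. Each adapted group is a single colony, so its 2 libraries measure the spread within that colony.

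DNA methyltransferases add a methyl group to cytosine, mostly in CpG pairs. DNMT1 copies the existing pattern onto the new strand at replication, guided by UHRF1, while DNMT3A and DNMT3B place marks on unmethylated DNA. The TET dioxygenases oxidise 5-methylcytosine, the first step in its removal. EZH1 and EZH2 are the alternative catalytic subunits of Polycomb repressive complex PRC2, which methylates lysine 27 of histone H3, and KDM5A and KDM5B are demethylases that remove methyl groups from lysine 4 of the same histone. In many cell types EZH2 and DNMT1 are expressed mainly in dividing cells, and EZH1 also in resting cells. KDM5A and KDM5B were described earlier in drug-tolerant and slow-cycling tumour cells. Transcript levels are not enzyme activity, and no methylation mark was measured here.

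E2F factors, which activate genes of DNA replication, bind sites with a core of T bases followed by C and G bases. Promoter sequences are shown for the members whose window holds such a core. They were picked for display with the fall of DNMT1 and EZH2 under BLU667 known, and whether E2F factors act on them was not tested. Windows ran from 250 bases before to 50 bases after each RefSeq start (GRCh38.p14), and 4 spellings were searched on both strands: TTTCCCGC, TTTCGCGC, TTTGCCGC and TTTGGCGC. All 10 members had windows, 20 between them, and 3 of those windows, from 3 members, held a match. A gene with more windows has more chances of a match, so members and the share of all genes are not like for like. Over all promoters, 1090 of 27305 genes (3.99%) and 1164 of 35116 windows (3.32%) held one. The DNMT1 window lies at chr19:10194904-10195203, the EZH2 window at chr7:148884242-148884541 and the EZH1 window at chr17:42744991-42745290, all on the minus strand. Capitals mark the match, which begins 2 bases before the start in DNMT1 (on the opposite strand), at position 2 after it in EZH2 and 115 bases before it in EZH1 (on the opposite strand). A second EZH2 window held no match. DNMT3B, also lower under BLU667, held no match in its only window. That window (chr20:32779602-32779901) lies inside the gene, whose annotated start is at 32762385, so the sequence around that start was not searched. The DNMT1 window also lies inside its gene, whose annotated start on the minus strand is at 10231286. Its match is therefore placed by the RefSeq start alone, and the sequence around the annotated start was not searched.
DNMT1: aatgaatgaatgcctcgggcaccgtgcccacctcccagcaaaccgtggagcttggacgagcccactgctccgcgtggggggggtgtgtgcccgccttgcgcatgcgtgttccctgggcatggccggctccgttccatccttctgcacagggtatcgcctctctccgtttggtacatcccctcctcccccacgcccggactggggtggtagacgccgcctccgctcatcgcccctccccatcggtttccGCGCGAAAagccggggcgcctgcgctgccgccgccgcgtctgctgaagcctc
EZH2: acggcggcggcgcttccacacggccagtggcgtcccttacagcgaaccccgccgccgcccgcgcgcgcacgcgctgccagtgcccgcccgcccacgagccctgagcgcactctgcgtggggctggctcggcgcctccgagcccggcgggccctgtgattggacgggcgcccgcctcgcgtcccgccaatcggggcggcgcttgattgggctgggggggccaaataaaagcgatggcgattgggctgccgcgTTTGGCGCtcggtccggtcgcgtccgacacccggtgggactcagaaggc
EZH1: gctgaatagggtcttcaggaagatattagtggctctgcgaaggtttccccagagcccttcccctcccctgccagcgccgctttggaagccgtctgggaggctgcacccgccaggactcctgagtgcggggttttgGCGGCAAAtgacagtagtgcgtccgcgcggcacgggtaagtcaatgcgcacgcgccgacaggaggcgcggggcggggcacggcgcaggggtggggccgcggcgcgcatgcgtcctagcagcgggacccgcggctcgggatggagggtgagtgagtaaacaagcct
The windows hold 30 CpG pairs in DNMT1, 46 in EZH2 and 30 in EZH1, against a median of 14 over all windows. A match is a description of the letters and no evidence of binding. Of the 3 members with a match, DNMT1 and EZH2 were lower under BLU667 and EZH1 was higher. The part of these sites in the changes was not tested.

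The libraries held between 15243703 and 21904245 reads in genes. Log2 values of replicates correlated across genes at between 0.978 (DMSO) and 0.989 (BR16). The 2 DMSO libraries also differed along the GC content of transcripts (Spearman correlation across genes 0.62 for replicate 1 minus replicate 2), and so did the 2 BR10 libraries (-0.45). Against DMSO, the differences of the colonies ran along GC content at -0.29 in BR8, -0.25 in BR10 and 0.26 in BR16. Of 8 thyroid markers, 3 passed the filter (PAX8, FOXE1 and HHEX), with PAX8 at 35.3 to 94.7 FPKM, while TG, TSHR, SLC5A5 and NKX2-1 were at or near 0, the highest being TG at 0.23 FPKM. None of 5 immune and none of 4 endothelial markers passed it. Of 6 fibroblast markers 3 passed, COL1A1, PDGFRB and LUM, and their list summed to 13.3 to 17.6 FPKM in BLU667, 0.763 to 7.40 FPKM in the colonies and 3.09 to 3.34 FPKM in DMSO. Their part in the results was not tested. In bulk RNA, fewer cells of a kind and less RNA per cell cannot be told apart.

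The 10 enzyme genes did not move as one after 24 h of BLU667. The maintenance methyltransferase DNMT1, the de novo methyltransferase DNMT3B and the PRC2 subunit EZH2 were lower, while EZH1, TET1, TET2, KDM5A and KDM5B were higher. In the adapted colonies DNMT1 and EZH2 lay between the BLU667 and DMSO levels, DNMT3B was back near DMSO on average, and KDM5B and EZH1 were above DMSO but below BLU667. TET3 stood apart, with its highest levels in the colonies and no call after 24 h. These levels are shown in the plot of every library.

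**Figure D1:**
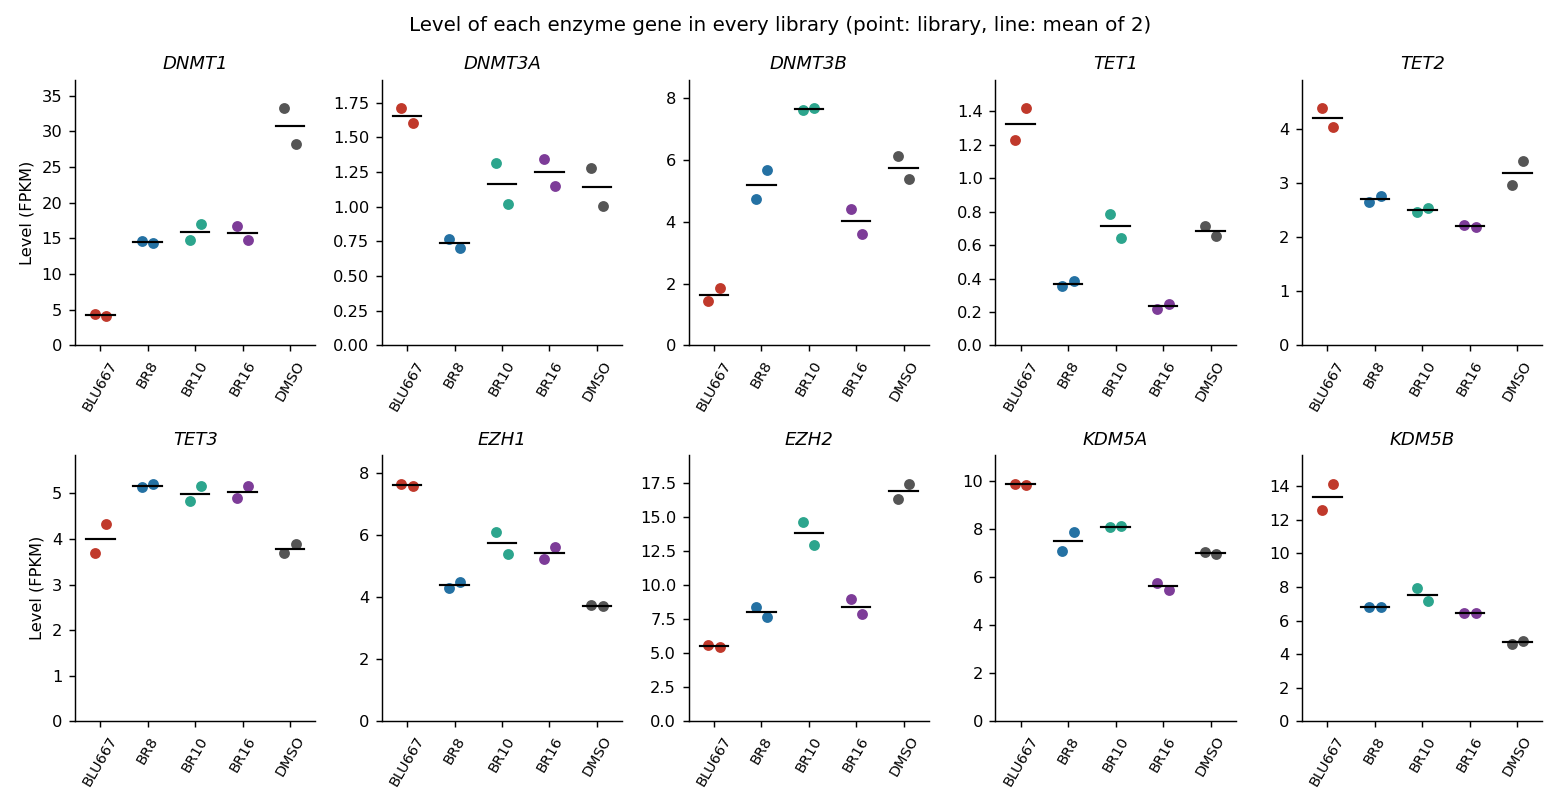
Level of each of the 10 enzyme genes (FPKM, linear axis from 0) in every library, with BLU667 leftmost, then BR8, BR10 and BR16, and DMSO at the right. Points are libraries and lines are means of 2. DNMT1, DNMT3B and EZH2 are lowest in BLU667, and EZH1, KDM5A, KDM5B, TET1 and TET2 are highest there.

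For tests, log2(FPKM + 1) was fitted with limma in 1 model of all groups, and a gene was called where its p-value, adjusted over all genes tested by the Benjamini-Hochberg method, was below 0.05. BLU667 against DMSO called 8 of the 10 members, 5 higher and 3 lower, among them TET1, which passed the filter only through its BLU667 libraries. The same comparison called 60.2% of all genes, 29% higher and 31.2% lower, so a count of 8 is not read as particular to these enzymes. The members' median log2 change was 0.32, against -0.01 over all genes. The adapted colonies against DMSO, as the mean of the 3 colonies, called 6 members, 3 higher and 3 lower, beside 49.2% of all genes (22.9% higher and 26.3% lower), with a median of -0.07 against -0.03 over all genes. Against BLU667 the colonies called all 10 members, 4 higher and 6 lower, beside 61.1% of all genes (32.4% higher and 28.7% lower), with a median of -0.41 against 0.03. TET1 is again among them, on the lower side, and its call is no support for the same reason. Each pair of these comparisons shares a group of libraries (DMSO, BLU667 or the colonies), so they are not independent.

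**Figure D2:**
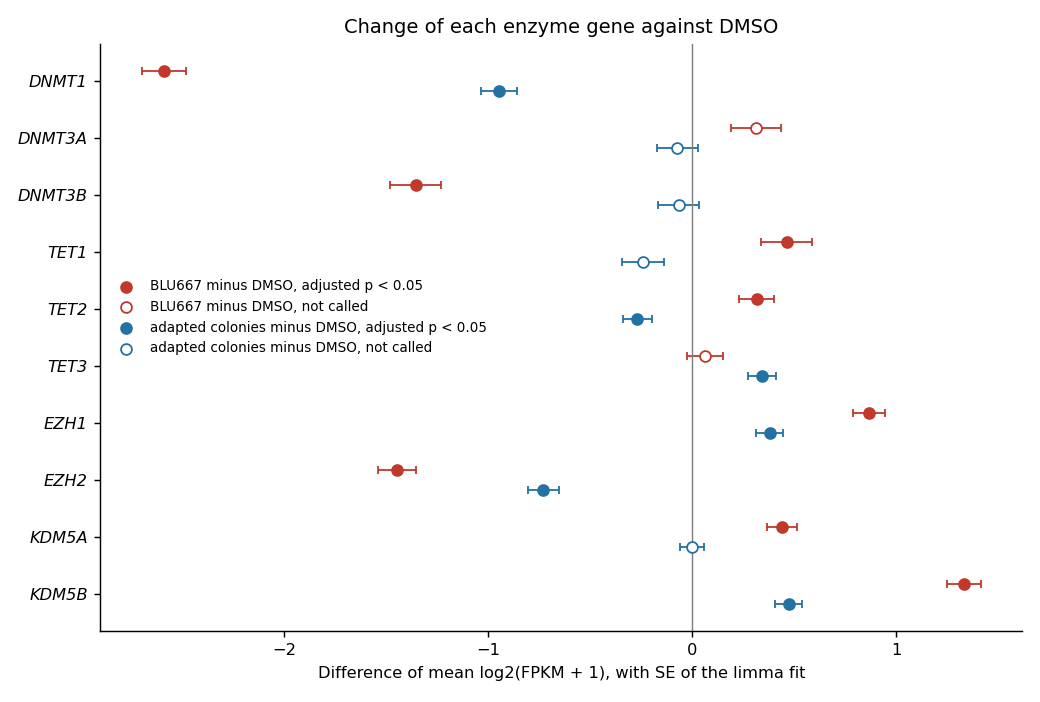
Difference of mean log2(FPKM + 1) from DMSO for each member (rows), in BLU667 (red) and in the adapted colonies (blue), with the SE of the limma fit as bars. Filled points have an adjusted p below 0.05. DNMT1 (-2.59 and -0.95) and EZH2 (-1.45 and -0.73) are lower in both, and KDM5B (1.33 and 0.47) and EZH1 (0.87 and 0.38) higher in both.

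DNMT1, the maintenance methyltransferase, is encoded on the minus strand of chromosome 19 (GRCh38, 10133345 to 10231286). It held 4.36 and 4.15 FPKM in BLU667 libraries, against 33.2 and 28.2 FPKM in DMSO libraries. The BLU667 mean was thus 13.9% of the DMSO mean, and the groups did not overlap (log2 change -2.59 ± 0.11 SE, adjusted p = 4.83e-07). Levels in the colonies were 14.7 and 14.4 FPKM in BR8, 14.8 and 17.0 FPKM in BR10 and 16.8 and 14.8 FPKM in BR16. All 6 colony libraries lay between those of BLU667 and DMSO, close to one another (-0.95 ± 0.09 from DMSO, adjusted p = 5.95e-05; 1.64 ± 0.09 from BLU667, adjusted p = 1.93e-06). The difference among colonies was not called (largest difference of means 0.12, adjusted p = 0.523). DNMT1 kept its call in each comparison with DMSO or BLU667 under every setting tried, other than a demand for an absolute log2 change of at least 1. Against DMSO the colony mean, BR10 and BR16 missed that demand, and BR8 (-1.03) met it. In the annotation 83 exon bases, 0.847% of the gene's length, are shared with S1PR2, which reached 1.52 FPKM at most.

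DNMT3B, a de novo methyltransferase (chromosome 20, 32762385 to 32809356, plus strand), held 1.44 and 1.85 FPKM in BLU667, against 6.11 and 5.39 FPKM in DMSO (-1.36 ± 0.12, adjusted p = 3.53e-05). The colonies differed from one another, with 4.73 and 5.68 FPKM in BR8, 7.62 and 7.67 FPKM in BR10 and 4.43 and 3.60 FPKM in BR16. Every colony library lay above both BLU667 libraries (1.29 ± 0.10, adjusted p = 1.56e-05). BR10 libraries lay above both DMSO libraries, BR16 libraries below them, and BR8 overlapped them. The mean over colonies was therefore close to DMSO (-0.07 ± 0.10, adjusted p = 0.622), and without BR16 it was 0.12. BR16 alone was lower (-0.43 ± 0.12, adjusted p = 0.0223), a call lost without DMSO replicate 1 (0.0896) or BR16 replicate 2 (0.154). BR10 was 0.36 above DMSO (adjusted p = 0.0508). Of the 20 alternatives that set no minimum change, 6 called that difference, with values over the 20 from 0.28 to 0.43.

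DNMT3A, the other de novo methyltransferase (chromosome 2, 25227855 to 25342590, minus strand), was the lowest of the 3 in DMSO. It held 1.71 and 1.60 FPKM in BLU667, against 1.28 and 1.00 FPKM in DMSO. The groups did not overlap, but the difference just missed the threshold (0.31 ± 0.12, adjusted p = 0.0557). Of the 19 alternatives that tested the gene and set no minimum change, 5 called it, with values over the 19 from 0.22 to 0.53. Voom on recovered reads, which adds no 1 FPKM, gave 0.53 (adjusted p = 0.0116). Colony levels were 0.767 and 0.706 FPKM in BR8, 1.31 and 1.02 FPKM in BR10 and 1.34 and 1.15 FPKM in BR16. BR8 was below every other library, and BR10 and BR16 overlapped DMSO. The colonies did not pass the test against DMSO (-0.07 ± 0.10, adjusted p = 0.582) and were lower than BLU667 (-0.38 ± 0.10, adjusted p = 0.0103) and that call was lost without BLU667 replicate 1 (0.0803). The low BR8 level gave a difference among colonies just short of the threshold (0.37, adjusted p = 0.0559). It was called under 7 of the same 19 alternatives, with values over the 19 from 0.28 to 0.75. Voom called this difference too (0.75, adjusted p = 0.00569), and called BR8 lower than DMSO (-0.63, adjusted p = 0.0122), where the fit on log2(FPKM + 1) had -0.30 (adjusted p = 0.0715).

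TET1 (chromosome 10, 68560656 to 68694482, plus strand), a dioxygenase with a CpG-binding CXXC domain, was the lowest of the 3 TET genes in every group. Its levels were 1.23 and 1.42 FPKM in BLU667, against 0.714 and 0.654 FPKM in DMSO, so that BLU667 held both of the highest values. TET1 passed the filter only through these BLU667 libraries, so its differences from BLU667 are no support. They are given from the fit with no filter, where it was higher in BLU667 than in DMSO (0.46, adjusted p = 0.0152). BR8 held 0.355 and 0.383 FPKM, BR10 0.786 and 0.641 FPKM and BR16 0.219 and 0.249 FPKM. BR8 and BR16 lay below DMSO and BR10 overlapped it. At such low levels the added 1 FPKM compresses differences: BR16 differed from DMSO by -0.45 ± 0.13 on this scale (adjusted p = 0.0194), and by -1.54 when recovered reads were tested with voom (adjusted p = 0.000286). Without BR16 replicate 1, BR16 replicate 2 or DMSO replicate 1 the BR16 call was lost (0.0881, 0.0722 and 0.0605). The colonies together were not called against DMSO (-0.24 ± 0.10, adjusted p = 0.0844), though voom called them (-0.80, adjusted p = 0.00199). Against BLU667 they were lower in the fit with no filter (-0.70, adjusted p = 0.000907).

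TET2 (chromosome 4, 105145875 to 105279816, plus strand), which lacks that domain, held 4.39 and 4.05 FPKM in BLU667, against 2.97 and 3.42 FPKM in DMSO (0.32 ± 0.09, adjusted p = 0.0126). That call was lost without BLU667 replicate 1 (0.0759), without DMSO replicate 1 (0.0522) and when the fit held BLU667 and DMSO alone (0.102). Colony levels were lower than DMSO in every library, at 2.66 and 2.77 FPKM in BR8, 2.48 and 2.55 FPKM in BR10 and 2.23 and 2.20 FPKM in BR16. The colonies were called lower than DMSO (-0.27 ± 0.07, adjusted p = 0.0137), again a call lost without 1 library, DMSO replicate 2 (0.0849). Against BLU667 they were lower (-0.59 ± 0.07, adjusted p = 0.000162), a call that held under each left-out library.

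TET3 (chromosome 2, 73986404 to 74108176, plus strand), like TET1 a CXXC dioxygenase, followed another course. It held 3.69 and 4.33 FPKM in BLU667, against 3.68 and 3.89 FPKM in DMSO, and these groups overlapped (0.06 ± 0.09, adjusted p = 0.552). In the colonies it held 5.14 and 5.21 FPKM in BR8, 4.84 and 5.16 FPKM in BR10 and 4.91 and 5.15 FPKM in BR16. All 6 colony libraries were above all 4 parental ones, and the colonies overlapped one another (largest difference 0.04, adjusted p = 0.891). They were higher than DMSO (0.34 ± 0.07, adjusted p = 0.00443) and than BLU667 (0.28 ± 0.07, adjusted p = 0.00897). The call against BLU667 was lost without BLU667 replicate 1 (0.108).

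EZH2 (chromosome 7, 148807383 to 148884321, minus strand), the PRC2 subunit of dividing cells, held 5.63 and 5.48 FPKM in BLU667, against 16.3 and 17.4 FPKM in DMSO. The BLU667 mean was 32.9% of the DMSO mean (-1.45 ± 0.09, adjusted p = 5.1e-06). The colonies fell into unlike levels, at 8.39 and 7.68 FPKM in BR8, 14.7 and 13.0 FPKM in BR10 and 8.96 and 7.86 FPKM in BR16. BR8 and BR16 overlapped each other, at 47.6% and 49.8% of DMSO, and BR10 was above both, at 81.8%. All 6 libraries lay above BLU667 and below DMSO (-0.73 ± 0.08 from DMSO, adjusted p = 0.000126; 0.72 ± 0.08 from BLU667, adjusted p = 8.44e-05). For BR10 alone the fall barely passed the threshold (-0.27 ± 0.09, adjusted p = 0.0482) and the call was lost with each library left out in turn (0.0566 to 0.248).

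EZH1 (chromosome 17, 42700275 to 42745049, minus strand), its alternative in PRC2, moved the other way. It held 7.63 and 7.57 FPKM in BLU667, against 3.73 and 3.69 FPKM in DMSO (0.87 ± 0.08, adjusted p = 3.61e-05). The BLU667 level was 2.05 times that of DMSO, with replicates close together. Colony levels were 4.29 and 4.48 FPKM in BR8, 6.09 and 5.37 FPKM in BR10 and 5.22 and 5.59 FPKM in BR16. Every colony library lay above DMSO and below BLU667 (0.38 ± 0.07 from DMSO, adjusted p = 0.00178; -0.49 ± 0.07 from BLU667, adjusted p = 0.000311). BR8, the colony with the smallest rise, was not called on its own (0.19 ± 0.08, adjusted p = 0.0784).

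KDM5B (chromosome 1, 202724495 to 202809470, minus strand), an H3K4 demethylase, had the largest rise of the 10 genes on the log2 scale. It held 12.6 and 14.1 FPKM in BLU667, against 4.62 and 4.79 FPKM in DMSO, a ratio of 2.84 (1.33 ± 0.08, adjusted p = 3.96e-06). Colony levels were 6.83 and 6.83 FPKM in BR8, 7.94 and 7.15 FPKM in BR10 and 6.45 and 6.44 FPKM in BR16. All 6 lay above DMSO and below BLU667, and no neighbouring groups overlapped (0.47 ± 0.07 from DMSO, adjusted p = 0.000651; -0.86 ± 0.07 from BLU667, adjusted p = 1.51e-05). Each colony was also called higher than DMSO on its own, by 0.46, 0.58 and 0.38 in BR8, BR10 and BR16. The gene model is the longest of the 10, at 25882 bases, so its FPKM set against other genes depends on how much of that model the cells use.

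KDM5A (chromosome 12, 280129 to 389454, minus strand), its paralog, rose too. It held 9.89 and 9.85 FPKM in BLU667, against 7.04 and 6.96 FPKM in DMSO (0.44 ± 0.07, adjusted p = 0.00105). Colony levels were 7.11 and 7.87 FPKM in BR8, 8.07 and 8.16 FPKM in BR10 and 5.76 and 5.48 FPKM in BR16. The colonies lay on both sides of DMSO and cancelled in their mean, a log2 change of -0.00016 ± 0.06 (adjusted p = 0.999), and without BR16 it was 0.14. They were lower than BLU667 (-0.44 ± 0.06, adjusted p = 0.000332). BR8 (0.08, adjusted p = 0.371) and BR10 (0.19, adjusted p = 0.0752) were not called against DMSO. BR16 was lower than DMSO (-0.27 ± 0.07, adjusted p = 0.0168), a call lost without BR16 replicate 1 (0.058) or 2 (0.114). The gene shares 182 exon bases (1.51% of its length) with CCDC77 on the opposite strand, which the non-directional libraries cannot separate, and CCDC77 reached 5.86 FPKM.

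Each colony was also set against the same DMSO libraries. BR8 called 4 members, 2 higher and 2 lower, beside 51.3% of all genes (24% higher and 27.3% lower). BR10 called 6, 3 in each direction, beside 40.8% (19.2% higher and 21.5% lower), and BR16 called 9, 3 higher and 6 lower, beside 45.5% (21.9% higher and 23.6% lower). TET3 and KDM5B were higher and DNMT1 and EZH2 lower in each colony. Fitted with DMSO alone, each colony lost the TET3 call (adjusted p = 0.0557 in BR8, 0.0913 in BR10 and 0.0574 in BR16). The BR10 count fell to 3 without either BR10 library, and the BR16 count to 4 without BR16 replicate 2. The TET2 call in BR10 (-0.25, adjusted p = 0.0475) was lost with each library left out in turn except DMSO replicate 1 (adjusted p from 0.0602 to 0.179), and that in BR16 (-0.38, adjusted p = 0.00765) without BR16 replicate 2 (0.0503). The TET3 call was lost in BR10 without DMSO replicate 1 (0.055), BR10 replicate 1 (0.0536) or BR10 replicate 2 (0.0972), and in BR16 without BR16 replicate 1 (0.0518) or 2 (0.0903).

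A moderated F test among the 3 colonies, which does not use DMSO as a reference, called 5 members, beside 58.1% of all genes. These were EZH2 (largest difference 0.71, adjusted p = 0.000977), KDM5A (0.46, adjusted p = 0.00282), DNMT3B (0.79, adjusted p = 0.00317), EZH1 (0.32, adjusted p = 0.0205) and TET1 (0.47, adjusted p = 0.0292). BR10 had the highest mean of the 3 colonies for each of these 5. The count fell to 3 without BR8 replicate 1, BR10 replicate 1 or BR16 replicate 2. TET1 was not called without 5 of the 6 colony libraries (adjusted p from 0.0513 to 0.154), nor EZH1 without BR8 replicate 1 (0.112), BR8 replicate 2 (0.067), BR10 replicate 1 (0.0599) or BR16 replicate 2 (0.0571). EZH2, KDM5A and DNMT3B were called under each library left out. With GC trends removed, the KDM5A difference was 0.25 (adjusted p = 0.0467) and TET1 lost its call (0.104).

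Paralogs of each kind were also set against each other within a library. FPKM ratios between genes depend on the annotated lengths, so only their differences between groups are read. EZH2 over EZH1 was 0.737 and 0.725 in BLU667, against 4.37 and 4.72 in DMSO. The colonies held 1.96 and 1.72 (BR8), 2.41 and 2.41 (BR10) and 1.72 and 1.41 (BR16), all between the parental groups. DNMT3B over DNMT3A was 0.839 and 1.15 in BLU667, against 4.77 and 5.37 in DMSO, with 6.17 and 8.04 in BR8, 5.80 and 7.53 in BR10 and 3.30 and 3.12 in BR16. BR8 and BR10 thus lay above DMSO and BR16 below it.

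TET3 over TET2 was 0.839 and 1.07 in BLU667, against 1.24 and 1.14 in DMSO, and was higher in all 6 colony libraries, from 1.88 in BR8 to 2.34 in BR16. KDM5B over KDM5A was 1.28 and 1.44 in BLU667, against 0.657 and 0.688 in DMSO, and the colonies lay between, from 0.868 in BR8 to 1.17 in BR16. These ratios were not tested.

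**Figure D3:**
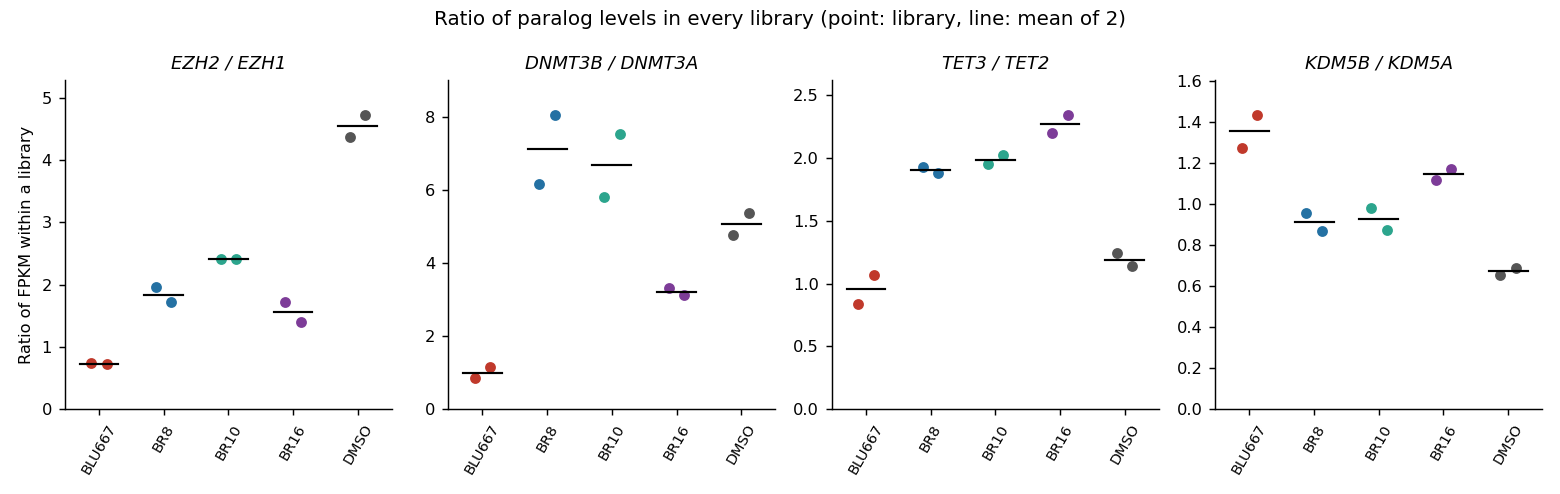
FPKM ratio of 4 paralog pairs within each library (linear axes from 0), groups in the same order as in the plot of levels. Points are libraries and lines are means of 2. EZH2 over EZH1 is 0.737 and 0.725 in BLU667 and 4.37 and 4.72 in DMSO, and TET3 over TET2 is above both parental groups in every colony library.

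Partners of these enzymes were read from lists of related genes. Beside the counts of each list stand the shares of all genes called, 29% higher and 31.2% lower in BLU667 against DMSO, 22.9% and 26.3% in the colonies against DMSO, and 32.4% and 28.7% in the colonies against BLU667. Of 15 partners and readers of DNA methylation, 14 passed the filter, with 2 higher and 7 lower in BLU667 against DMSO (median log2 change -0.22), 1 higher and 7 lower in the colonies against DMSO (-0.23) and 3 in each direction in the colonies against BLU667. UHRF1, which brings DNMT1 to replicating DNA, held 3.38 and 3.87 FPKM in BLU667, 19.9 and 19.3 FPKM in BR8, 23.0 and 23.5 FPKM in BR10, 20.2 and 20.3 FPKM in BR16, and 38.5 and 34.5 FPKM in DMSO. These groups kept the same order as those of DNMT1 at both ends (-3.02 ± 0.08 in BLU667, adjusted p = 8.5e-08, and -0.77 ± 0.07 in the colonies, adjusted p = 4.8e-05). The chromatin remodeller HELLS was lower too (-2.05 in BLU667 and -0.45 in the colonies), as was MBD3 (-0.96 and -0.87), a subunit of the NuRD complex. DMAP1, a DNMT1-binding protein, was higher in BLU667 (0.89).

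**Figure D4:**
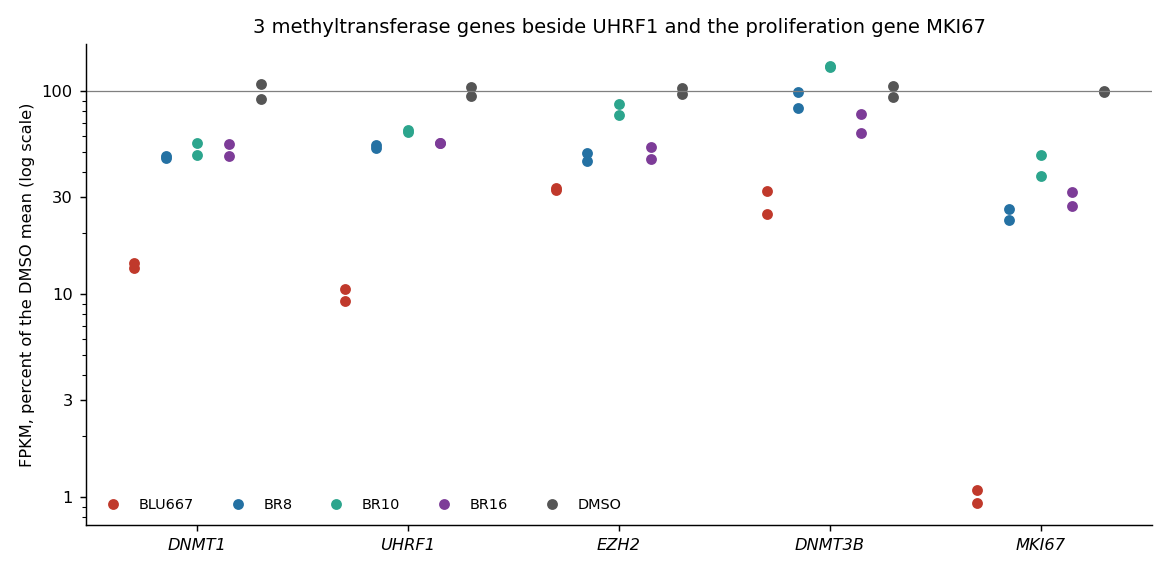
FPKM as a percent of the DMSO mean (log axis) for DNMT1, UHRF1, EZH2, DNMT3B and MKI67, 1 point per library, BLU667 at the left and DMSO at the right of each gene. DNMT1 is at 14.2% and 13.5% in BLU667 and MKI67 lies lower, near 1%, while in the colonies DNMT3B reaches 133% in BR10.

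PRC2 partners and H3K27 demethylases gave 13 tested genes of 14. In BLU667 4 were higher and 6 lower than DMSO (median -0.22), in the colonies 2 were higher and 7 lower (-0.28), and against BLU667 5 colony genes were higher and 2 lower. The core PRC2 subunits SUZ12 and EED were called lower in both comparisons, as EZH2 was, with SUZ12 at -0.92 in BLU667 (adjusted p = 0.000784) and -0.36 in the colonies (adjusted p = 0.0351) and EED at -0.67 (adjusted p = 0.000656) and -0.38 (adjusted p = 0.00629). SUZ12 in BR8 and BR10, at 19.4 to 21.7 FPKM, lay between the DMSO libraries, at 19.1 and 27.5 FPKM. The 2 histone-binding subunits went opposite ways. RBBP7 was lower in both (-1.25, adjusted p = 4.72e-06, and -0.43, adjusted p = 0.000956). RBBP4, named after its values were seen, was higher in both by less (0.28, adjusted p = 0.00861, and 0.21, adjusted p = 0.0178). The accessory subunit PHF19 fell most (-2.25 and -1.06). The H3K27 demethylases KDM6A (0.34, adjusted p = 0.00707) and KDM6B (0.80, adjusted p = 0.00226) were higher in BLU667. In the colonies they were not called against DMSO (-0.17, adjusted p = 0.0701, and -0.02, adjusted p = 0.891). For KDM6B that mean covers colonies on both sides of DMSO, which held 5.56 and 3.73 FPKM. BR16 lay above it (7.32 and 6.86 FPKM), BR8 below it (3.25 and 2.49 FPKM) and BR10 between its libraries. The moderated F test among colonies called KDM6B (adjusted p = 0.00214).

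Among 5 other KDM5 family and H3K4 demethylase genes, 1 was higher and 1 lower against DMSO in BLU667, and likewise in the colonies. KDM1B was higher (0.47 in BLU667 and 0.60 in the colonies). KDM5C, the paralog on the X chromosome, was lower (-0.32, adjusted p = 0.0329, and -0.36, adjusted p = 0.00972), opposite to KDM5B. Of 15 genes of H3K4 methyltransferase complexes, 3 were higher and 10 lower in BLU667 (median -0.46), and 1 was higher and 10 lower in the colonies (-0.27). HCFC1 (-1.78 and -1.01) and WDR5 (-1.54 and -0.27), both scaffold subunits, were among the lower ones. SMYD3, a methyltransferase on this list, was higher in both BLU667 (0.66) and the colonies (0.73).

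Values of proliferation genes are given beside those of DNMT1, EZH2 and DNMT3B because all were lower in BLU667 than in DMSO. In the colonies DNMT3B was not called against DMSO on average (-0.07, adjusted p = 0.622). MKI67, the Ki-67 antigen gene, held 0.621 and 0.723 FPKM in BLU667, 15.4 and 17.5 FPKM in BR8, 25.3 and 32.2 FPKM in BR10, 21.2 and 18.1 FPKM in BR16, and 66.7 and 66.0 FPKM in DMSO. All 20 genes of an E2F-driven and proliferation list were lower in BLU667 than in DMSO, and 19 were lower in the colonies, with medians of -3.70 and -0.97. All 20 were higher in the colonies than in BLU667. Their summed level was 58.2 and 65.6 FPKM in BLU667, 647 and 650 FPKM in BR8, 648 and 698 FPKM in BR10, 483 and 446 FPKM in BR16, and 1066 and 1161 FPKM in DMSO. DNMT1 and EZH2 lay in the same order at both ends, but DNMT3B in BR10 exceeded DMSO, which the summed level did not. The part of cell division in the enzymes' levels was not tested.

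**Figure D5:**
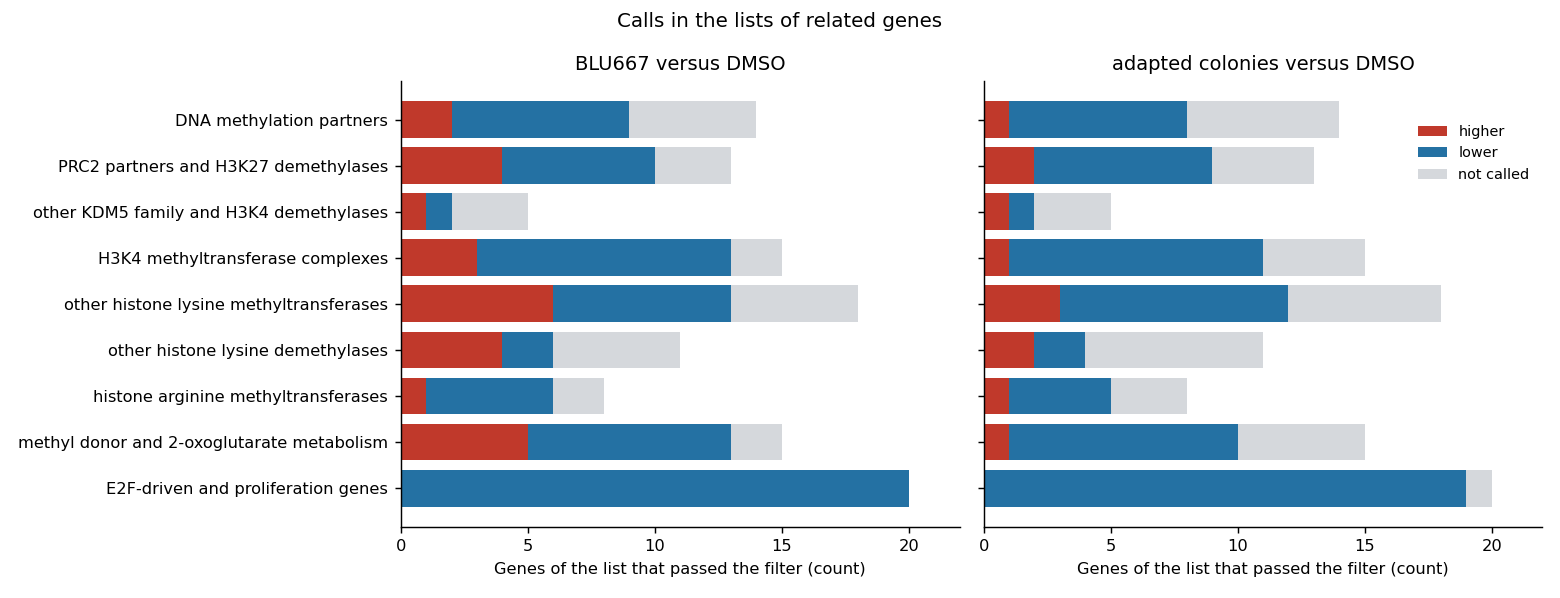
Number of genes called higher (red), lower (blue) or not called (grey) among the tested genes of 9 lists of related genes, for BLU667 against DMSO (left) and the adapted colonies against DMSO (right). All 20 proliferation genes are lower in BLU667 and 19 in the colonies, and 10 of 15 H3K4 methyltransferase complex genes are lower in each.

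The protein-coding genes whose pattern over the 10 libraries was nearest to each member were found by the root mean square difference of centred log2(FPKM + 1). CDCA4 (0.0743) and the E2F factor gene E2F2 (0.0931) were nearest to DNMT1, and TOP1 (0.144) and SPRED1 (0.148) to EZH2. For EZH1 they were PTCH1 (0.0588) and STAU1 (0.071), and for KDM5B TTC3 (0.0614) and AQP4 (0.0748). DNMT3B had GLA (0.109) and NUP62CL (0.132) and DNMT3A had TOX4 (0.0681) and CLCN6 (0.0833). The TET genes were nearest to ENTPD4 (0.0734) and NCOA7 (0.08) for TET1, RPSA (0.0653) and KTN1 (0.0692) for TET2, and LAMTOR5 (0.0516) and QDPR (0.0624) for TET3, and KDM5A to WDR11 (0.0655) and HTRA1 (0.0665). Small values are easier to reach for members that vary little, so they do not rank the members. The added 1 FPKM also compresses the changes of low genes. E2F2 held 0.0104 and 0 FPKM in BLU667, 0.228% and 0% of its DMSO mean, where DNMT1 kept 14.2% and 13.5%. The nearness of E2F2 to DNMT1 therefore does not mean a like fold change.

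The SE of the comparisons with the colonies reflects the spread between libraries and not between colonies. With the 3 colony means as replicates, DNMT1 alone was called against DMSO (adjusted p = 0.00872), and EZH2 (0.0876), KDM5B (0.0721), TET2 (0.261), TET3 (0.142) and EZH1 (0.143) were not. Against BLU667 6 members were called, among them TET1, which passed the filter only through its BLU667 libraries. DNMT3A (0.151), TET3 (0.157), EZH2 (0.0559) and KDM5A (0.0964) were not called.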

How the data were processed

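Per the labels, a Direct-zol kit with TRI reagent gave the total RNA of 10 libraries, which were non-directional (NEB) and made after GlobinClear treatment. CASAVA, STAR 2.5, HTSeq 0.6.1, DESeq2 (version given as 2) and the build GRCh38 (hg38) come from the submitters' processing notes. The authors deposited FPKM per gene. The annotation's release is not stated there. All 58735 gene IDs are in GENCODE 29. Multiplied by gene length and divided by what 1 read is worth in that library, 100% of the FPKM values came out as whole reads (tolerance 0.05).

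The filter (1 FPKM or more in 2 or more libraries) left 13927 genes. Their log2(FPKM + 1) entered a single limma 3.58.1 model (R 4.3.3, variance trend) of the 5 groups, which leaves 5 residual degrees of freedom. Tests were two-sided, and p below 0.05 after Benjamini-Hochberg adjustment over all genes were called. On this scale, changes of low genes are understated. The adapted colonies were taken as the mean of 3 group means, and colonies were compared by a moderated F test. The script was tested on simulated data.

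The members and lists were chosen with earlier results of these data known. Beside the members, the text names up to 4 called genes of a list per comparison with the largest changes, UHRF1, EED, SUZ12, KDM5C, KDM6A, KDM6B and MKI67, and 2 nearest patterns per member. Some genes of the lists are not reported here. Alternatives were a pseudocount of 0.1 or 0.25, a filter at 5 FPKM or none, quantile normalization, no variance trend, a replicate block, leaving out each library, colony means as replicates, fits of the compared groups alone, no BR16, removal of GC trends (loess, span 0.3), voom on recovered reads and an absolute log2 change of at least 1. Python 3.11.15, pandas 2.3.3, numpy 2.4.6 and matplotlib 3.10.9 were used. Promoters are from RefSeq (GRCh38.p14).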

Additional observations from a re-analysis of the deposited data

Results flagged for a closer look

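The effects of the 3 colonies against DMSO differed by a test of the difference itself, the moderated F test among colonies with p adjusted over all genes, for 5 members. EZH2 (adjusted p = 0.000977) stood at 81.8% of its DMSO mean in BR10, 47.6% in BR8 and 49.8% in BR16. DNMT3B (adjusted p = 0.00317) was above both DMSO libraries in BR10 and below both in BR16. KDM5A (adjusted p = 0.00282) was above DMSO in BR8 and BR10 and below it in BR16. Neither rise was called in the limma fit (adjusted p = 0.371 in BR8 and 0.0752 in BR10). With GC trends removed, KDM5A in BR8 was at -0.064 and the BR16 call was lost (0.0679). EZH1 (adjusted p = 0.0205) was above DMSO in each colony and least so in BR8. TET1 (adjusted p = 0.0292) was below DMSO in BR8 and BR16 and overlapped it in BR10. The same test called 58.1% of all genes, so differences among colonies were common.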

How the results depend on the processing

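Of the members' values under the alternatives, 1301 kept direction and side of the threshold, 118 lost the call, 34 gained one and 22 changed sign. A demand for an absolute log2 change of at least 1 left 4 called members in BLU667 against DMSO, 0 in the colonies against DMSO, 2 in the colonies against BLU667, 1 in BR8, 0 in BR10, 0 in BR16 and 0 among colonies, where the limma test without it had called 8, 6, 10, 4, 6, 9 and 5. It left 20%, 8.92%, 13.3%, 14.5%, 8.8%, 11.6% and 13.1% of all genes. With each colony fitted with DMSO alone, BR8 lost its TET3 call (adjusted p = 0.0557), with 35.6% of all genes called. BR10 called 3 and BR16 5 (23.9% and 33.3% of all genes). Colony means as 3 replicates called 1 against DMSO and 6 against BLU667, TET1 among the 6 (11.1% and 26.3% of all genes). Leaving out single libraries gave 6 to 8 calls for BLU667 against DMSO, 5 to 6 and 7 to 10 for the colonies against DMSO and BLU667, 4 to 5 in BR8, 3 to 5 in BR10, 4 to 9 in BR16 and 3 to 6 among colonies. The shares of all genes were 50.7% to 59.7%, 43.6% to 49.1%, 48.3% to 65.9%, 39.5% to 53.1%, 25.8% to 42.5%, 30.9% to 49.6% and 37.7% to 65.1% in the same order.

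All changes of sign were of values without a call, and the cause was not tested. Against DMSO, quantile normalization gave KDM5A 0.051 in the colonies, DNMT3A -0.031 and TET1 -0.069 in BR10 and DNMT3A -0.017 in BR16. Removing GC trends gave KDM5A -0.064 in BR8, TET1 -0.079 in BR10 and DNMT3A -0.020 in BR16, and ended the BR16 calls of TET1 (adjusted p = 0.0908) and KDM5A (0.0679) and the call of TET1 among colonies (0.104). It also added calls against DMSO: TET1 (-0.46, adjusted p = 0.0206) and TET2 (-0.32, 0.00553) lower in BR8, DNMT3B higher in BR10 (0.37, 0.0244) and DNMT3A higher in BLU667 (0.37, 0.0242). Voom gave DNMT3A -0.0047 in BR10. Without BR16 the colonies held DNMT3B at 0.12 and KDM5A at 0.14. With single libraries left out, the colonies' values ran from -0.17 to 0.021 for DNMT3A, -0.14 to 0.011 for DNMT3B and -0.022 to 0.021 for KDM5A. In BR10 they ran from -0.083 to 0.11 for DNMT3A and -0.037 to 0.085 for TET1, in BR16 from -0.024 to 0.16 for DNMT3A and in BLU667 from -0.030 to 0.16 for TET3.

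Replicate numbers did not pair the libraries (correlations of deviations between groups -0.163 to 0.109). With the replicate number as a block, 9 members were called in BLU667 against DMSO (DNMT3A added, adjusted p = 0.0454), 6 in the colonies against DMSO, 10 against BLU667, 4 in BR8, 4 in BR10 (TET2 0.0719 and EZH2 0.053 lost), 9 in BR16 and 6 among colonies (DNMT3A added, 0.0472). The block called 58.5%, 46.7%, 59.3%, 48.8%, 37.9%, 43% and 54.3% of all genes. TET1, with 33 to 229 reads per library, is the member whose precision depth limits most. It is counted among the calls against BLU667, though it passed the filter only through the BLU667 libraries. At a filter of 5 FPKM, DNMT3A, TET1 and TET2 were not tested, nor TET1 without either BLU667 library, since they then miss the filter.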

Other observations

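Genes that supply or use methyl groups changed beside these enzymes. Of 15 tested genes of methyl donor and 2-oxoglutarate metabolism, 5 were higher and 8 lower in BLU667 against DMSO, and 1 was higher and 9 lower in the colonies, beside the same shares of all genes as for the lists above (29% and 31.2%, and 22.9% and 26.3%). MAT2A, which makes S-adenosylmethionine, held 32.5 and 28.0 FPKM in BLU667, 37.9 and 39.0 FPKM in BR8, 57.7 and 58.4 FPKM in BR10, 41.9 and 39.4 FPKM in BR16, and 101 and 100.4 FPKM in DMSO. It was lower in BLU667 (-1.71 ± 0.09, adjusted p = 1.22e-06) and in the colonies (-1.15 ± 0.07, adjusted p = 5.9e-06), with no overlap. IDH2, the mitochondrial isocitrate dehydrogenase that yields 2-oxoglutarate, averaged 19.3 FPKM in the colonies, against 57.0 FPKM in BLU667 and 35.4 FPKM in DMSO.

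Of 8 arginine methyltransferase genes, 5 were lower and 1 higher in BLU667 against DMSO and 4 lower and 1 higher in the colonies, among them PRMT5 (-1.27 and -0.37) and PRMT1 (-1.03 and -0.69). The other histone lysine methyltransferases gave 6 higher and 7 lower of 18 in BLU667 and 3 higher and 9 lower in the colonies. SUV39H1, an H3K9 methyltransferase, fell in both (-2.16 and -0.96), and so did the H3K79 methyltransferase DOT1L (-1.41 and -1.03). Of 15 other lysine demethylases 11 were tested, 4 higher and 2 lower in BLU667, with KDM7A (0.84) and JMJD1C (0.55) higher, and 2 in each direction in the colonies.

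None of 18 germline genes, many of them silenced by DNA methylation in adult tissue, passed the filter. PRAME held 0.978 and 0.823 FPKM in BLU667, 0.0603 and 0.204 FPKM in BR8, at most 0.0164 FPKM in BR10 and BR16, and 0.943 and 0.854 FPKM in DMSO. MAEL averaged 0.38 FPKM in BLU667, 1.03 FPKM in BR8, 0.48 FPKM in BR10, 0.816 FPKM in BR16 and 0.135 FPKM in DMSO. DDX4, MAGEA4, MAGEC2, GAGE1 and CTAG1B were listed at 0 in every library.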
